A study of Sus scrofa with 48 samples.

Results

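The energy regulators described here are 4 genes measured on porcine expression arrays: PPARD, PPARGC1A, HNF4A and PRKAA2. They were chosen by name, as every probe whose transcript accession could be matched to PPARA, PPARD, PPARGC1A, HNF4A, PRKAA1 or PRKAA2. Each of the 4 genes had 1 matched probe, so that 4 of 43603 probes were members. PPARA and PRKAA1 were matched by no probe and were not analysed here. Only 2628 probes could be named, and unnamed probes may also belong to any of these genes. The probes were A_72_P165296 for PPARD, A_72_P077836 for PPARGC1A, A_72_P088141 for HNF4A and A_72_P035741 for PRKAA2, and their accessions were named through the RefSeq gene table of the pig assembly Sscrofa11.1.

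The arrays measured total RNA of gluteus medius muscle (GM), liver and kidney of 16 Swiss Large White pigs of the F2 generation, each pig giving all 3 tissues (48 arrays). All F2 pigs and their F1 fathers received standard feed. The 8 F2 C pigs descended from F0 boars on a standard diet, whereas the 8 F2 E pigs descended from F0 boars whose standard diet was supplemented with methionine, choline, betaine, vitamin B6, vitamin B12 and folate. Each line held 4 males, which were castrated (barrows), and 4 females, all of them slaughtered at finishing weight after a fast. A few F0 boars of each diet founded the lines, so pigs of a line can share ancestors, and a difference between lines cannot be told apart from a difference in their pedigree. The comparisons ask whether these genes differed between tissues, between lines and between sexes.

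PPARD encodes PPAR delta, a nuclear receptor that is activated by fatty acids and switches on genes of fatty acid oxidation, above all in muscle. PPARGC1A encodes PGC-1 alpha, a coactivator that binds PPARs, HNF4A and other transcription factors and drives mitochondrial genes in muscle, which is induced by exercise and cold, and glucose production in the fasted liver. HNF4A encodes a nuclear receptor that sets the expression programme of hepatocytes and of the proximal tubule of the kidney. PRKAA2 encodes the alpha 2 catalytic subunit of AMPK, the kinase that senses low cellular energy, and it is the main catalytic form of skeletal muscle.

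Values are log2 median spot signals. They were quantile-normalized over all 48 arrays where tissues are compared and over the 16 arrays of a tissue where lines or sexes are compared, so that the values of the 2 scales are not interchangeable. A probe's brightness depends on its own sequence, and the level of 1 gene cannot be set against that of another. The median spot signal before normalization was 48 to 88.5 in GM, 88 to 167 in liver and 48 to 240.5 in kidney. Single pigs are given letters. The kidney arrays of pigs Q and S, kidney replicates 7 and 5 of F2 E, had the lowest median signal of the kidney arrays (48) and the fewest spots well above background (25071 and 27156). Each tissue was hybridised on slides of its own, so that tissue and slide cannot be told apart. The tissue labels fitted the marker genes. The log2 of the summed signal of 8 muscle markers was 21.59 to 21.78 in GM and at most 10.30 elsewhere. That of 6 liver markers was 18.35 to 21.05 in liver and at most 16.32 elsewhere. Outlier-flagged spots were left out of these sums. The kidney marker SLC12A1 was well above background on 0 of 16 arrays in GM and in liver.

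HNF4A separated GM from both other tissues. The HNF4A probe was well above background on 0 of 16 GM arrays and on all 16 arrays of liver and of kidney. Its log2 signal on the scale of 48 arrays ranged from 9.65 to 10.89 in liver, with a median of 10.21, and from 9.06 to 11.07 in kidney, with a median of 9.93. In GM the spots read 5.24 to 6.48, so that no GM array came near the lowest liver or kidney array. Liver was higher than GM in 16 of 16 pigs by a log2 difference of 4.62 (95% interval 4.32 to 4.91, limma adjusted p = 3.43e-26), and kidney in 16 of 16 pigs by 4.31 (4.02 to 4.61, adjusted p = 3.52e-25). Because the GM spots gave only an upper bound, HNF4A was at least 18.8-fold higher in liver and at least 15.2-fold higher in kidney than in GM, where the bound is set by the dimmest spot well above background of each GM array or by the probe's own signal if that was higher. The exact sign-flip test over pigs gave p = 3.05e-05 for liver against GM, the smallest that 16 pigs can give. Between liver and kidney the HNF4A log2 difference was 0.30 (0.01 to 0.60, adjusted p = 0.0617, exact p = 0.107), with liver higher in 10 of 16 pigs. Without the 2 dim kidney arrays it was 0.44 with an adjusted p of 0.00372, which is still below 2-fold.

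PRKAA2 had the opposite order, with GM above both other tissues. Its log2 signal was 15.36 to 16.49 in GM (median 16.01), 12.02 to 13.18 in liver (median 12.53) and 12.05 to 13.10 in kidney (median 12.53), well above background on every array. The GM values did not overlap those of the other tissues, while liver and kidney covered almost the same range. Liver fell below GM by 10.7-fold (log2 difference -3.42, 95% interval -3.62 to -3.23, adjusted p = 7.50e-28) and kidney by a like amount (-3.40, -3.59 to -3.20, adjusted p = 1.12e-27), each in 16 of 16 pigs. The log2 difference between liver and kidney was -0.03, with an interval of -0.22 to 0.17 (adjusted p = 0.819, exact p = 0.778).

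PPARGC1A was bright in all 3 tissues and rose from GM to kidney. Its log2 signal ranged from 11.20 to 16.16 in GM (median 12.22), from 12.25 to 14.67 in liver (median 13.68) and from 13.83 to 15.46 in kidney (median 14.38), and the 3 ranges overlapped. Kidney was 3.21-fold higher than GM (log2 difference 1.68, 95% interval 0.99 to 2.38, adjusted p = 3.93e-05, exact p = 0.000702), in 13 of 16 pigs. Liver lay between, with a log2 difference of 0.85 from GM (0.15 to 1.54, adjusted p = 0.0273, exact p = 0.101) and of -0.84 from kidney (-1.53 to -0.14, adjusted p = 0.0296, exact p = 0.00433), neither of which reached 2-fold. The liver value against GM moved with single animals. Leaving out any 1 of 8 pigs took its limma adjusted p to between 0.0507 and 0.0646, and it was 0.0813 under 75th percentile scaling and 0.0975 with background-corrected signals. It passed 2-fold without pig R (1.07, limma adjusted p = 0.00382), without pig S (1.16, adjusted p = 0.000599) or without pig T (1.03, adjusted p = 0.00735), the 3 pigs with the highest GM values. Without both R and S it was 1.42 (adjusted p = 3.71e-06).

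PPARD was dim in all 3 tissues, well above background on 5 GM, 13 liver and 12 kidney arrays. Its log2 signal was 5.44 to 6.34 in GM, 5.21 to 6.82 in liver and 5.60 to 6.07 in kidney, with medians of 6.02, 6.30 and 5.79. These ranges lay largely on top of each other. Liver was higher than GM by 0.35 (95% interval 0.16 to 0.54, adjusted p = 0.00132, exact p = 0.00452) and higher than kidney by 0.48 (0.29 to 0.68, adjusted p = 2.59e-05, exact p = 0.00058), each in 15 of 16 pigs and below 2-fold, while kidney minus GM was -0.13 (adjusted p = 0.20, exact p = 0.0990). The scaling decided the PPARD differences. With each array divided by its 75th percentile instead, liver minus GM was -0.05, liver minus kidney 1.1 and kidney minus GM -1.15, but that scaling also moved the median of all probes by -0.25, 0.38 and -0.60 on the log2 scale, against 0.01, -0.02 and 0.05 with quantiles.

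**Figure D1:**
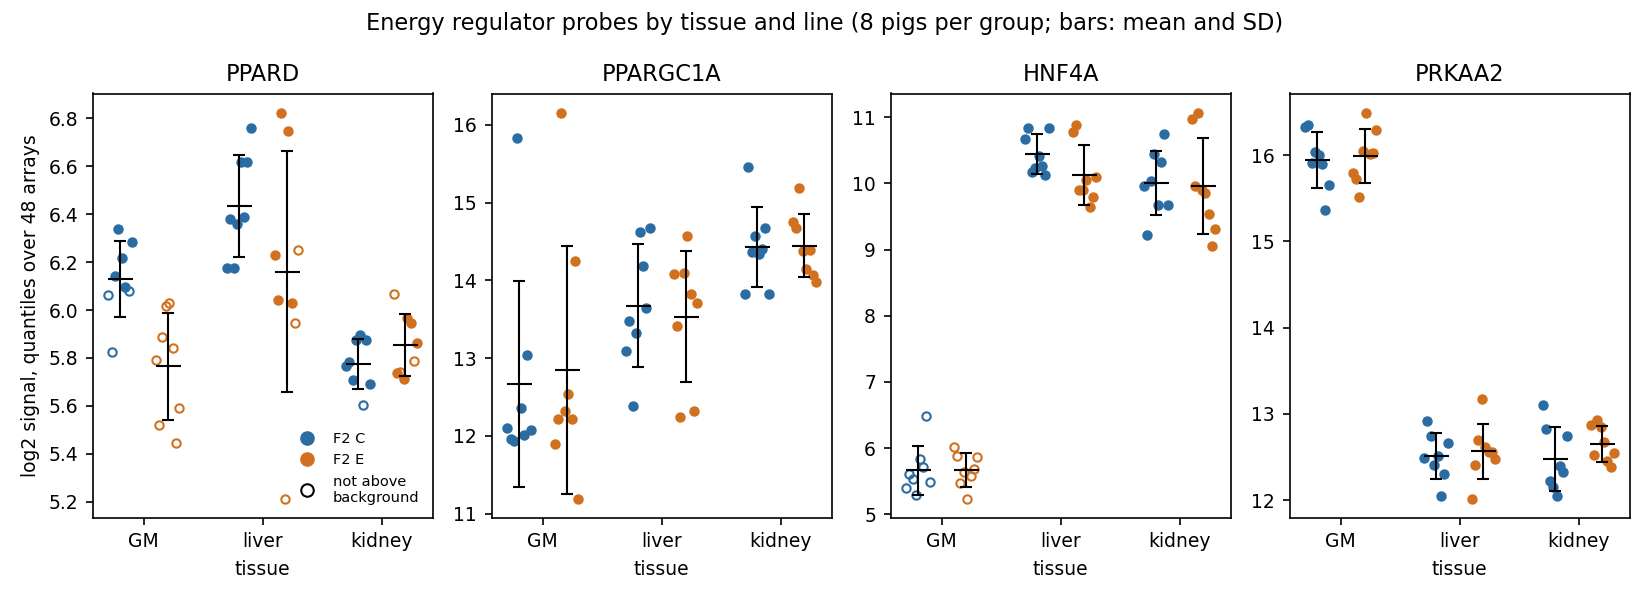
Log2 signal of the 4 energy regulators in each of the 16 pigs (points) by tissue on the scale of 48 arrays, with F2 C and F2 E pigs in colour, arrays not well above background as open points, and bars for the mean and SD of 8 pigs. HNF4A stands at 5.24 to 6.48 in GM and above 9 elsewhere, PRKAA2 is highest in GM, and PPARGC1A spreads from 11.20 to 16.16 in GM.

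A tissue difference was called at an adjusted p below 0.05 and at least 2-fold. Of the 4 regulators, 2 were called between liver and GM (HNF4A higher and PRKAA2 lower in liver), 0 between liver and kidney, and 3 between kidney and GM (HNF4A and PPARGC1A higher and PRKAA2 lower in kidney). Such calls were common on these arrays. Among the 34514 probes tested, 15.0% were called higher and 15.3% lower in liver than in GM, 11.7% higher and 13.8% lower in liver than in kidney, and 17.5% higher and 15.8% lower in kidney than in GM.

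The genes that work with these regulators were read from lists of their pathway. Of the 13 measured nuclear receptors and coregulators, 8 were called higher and 3 lower in liver than in GM, with a median log2 difference of 1.19, against 0.01 over all probes. The xenobiotic receptors NR1I3 and NR1I2, which are themselves under HNF4A control in hepatocytes, were higher in liver than in GM. The log2 difference of NR1I3 was 8.58, with the probe well above background on 2 of 16 GM arrays, and NR1I2, above background on 0 of 16, was at least 150-fold higher.

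The receptors on the muscle side were PPARG, the adipocyte PPAR, with a log2 difference of -3.74 between liver and GM, and RXRG, a heterodimer partner of PPARs (-1.39). Between liver and kidney 6 of the 13 were higher and 2 lower in liver (median 0.62), among them NR1H3, the liver X receptor alpha, higher by 2.68, and RXRG, higher by 2.07. In kidney 5 were higher and 3 lower than in GM (median -0.08), and the log2 differences were -3.46 for RXRG and -2.67 for PPARG. Adipocyte markers moved with the receptors that were higher in GM: 4 of 6 adipocyte markers were called lower in liver and 5 of 6 lower in kidney than in GM, with median log2 differences of -2.83 and -3.06. The part of adipocytes in these values was not tested, and fewer cells of a type and less RNA per cell cannot be told apart in whole tissue.

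Of the other AMPK subunits and kinases, 2 of 12 listed genes had a named probe. PRKAG3, the gamma 3 subunit of glycolytic muscle, was at least 3.39 higher in GM than in liver on the log2 scale, and its log2 signal fell by 3.40 from GM to kidney, so that it was called with PRKAA2 in both comparisons. PRKAG1, the common gamma subunit, fell by 1.76 from GM to kidney and was higher by 1.51 in liver than in kidney. Among the 4 measured AMPK substrates, LIPE, the hormone-sensitive lipase, was lower in liver than in GM and kidney (log2 differences -4.70 and -1.60). SREBF1, a transcription factor of lipid synthesis, was lower in kidney than in both GM (-5.01) and liver (4.99 higher in liver). ACACA, the acetyl-CoA carboxylase, passed no call in any of the 3 comparisons, with log2 differences of 0.58, 0.62 and -0.04 for liver minus GM, liver minus kidney and kidney minus GM.

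The 18 measured PPAR targets of fatty acid use split by tissue. Between liver and GM 8 were called higher and 5 lower in liver (median 0.70). The genes higher in liver included FABP1, the liver fatty acid binding protein, by a log2 difference of 10.41 with the probe well above background on 3 of 16 GM arrays, CYP4A21, a fatty acid hydroxylase, by at least 268-fold, and CPT1A, the liver form of the carnitine palmitoyltransferase, by 3.57. Lower in liver were UCP3, an uncoupling protein of muscle mitochondria (-8.50), LPL, the lipoprotein lipase (at least 84.7-fold), CD36, a fatty acid transporter (-6.37), and CPT1B, the muscle form of CPT1A (-3.50).

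In kidney 5 PPAR targets were called higher and 5 lower than in GM (median 0.73), but under 75th percentile scaling 4 were higher and 7 lower (median -0.11). CYP4A21 was at least 77.1-fold higher, VNN1, a pantetheinase of the tubule, at least 19.3-fold higher and CPT1A higher by 3.69 on the log2 scale, whereas UCP3 (-5.78), CD36 (-4.35) and LPL (-3.90) were lower. Liver and kidney differed at 9 targets, 5 of which were higher in liver (7 of 11 under 75th percentile scaling), led by FABP1 (9.46). CD36 (-2.02) was lower in liver than in kidney, and LPL was at least 5.69-fold higher in kidney. UCP3 was called lower in liver too, by -2.72 over both lines. That mean stood for neither line, since the log2 difference was -0.03 in F2 C (9.11 in liver and 9.13 in kidney) and -5.42 in F2 E (6.22 and 11.64).

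As a list, the 7 measured PGC-1 alpha targets did not follow the order of PPARGC1A, with FBP1 as the exception. In kidney, where PPARGC1A was highest, 1 was called higher and 3 lower than in GM (median -0.56), and in liver 2 were higher and 4 lower (median -1.17). MEF2C, a muscle transcription factor, was lower than in GM in kidney (-5.18) and liver (-5.54), as were IDH3A, of the citric acid cycle (-2.77 and -3.01), and ATP5O, of the ATP synthase (-1.25 and -1.36). FBP1, a gluconeogenic enzyme, was higher than in GM by 7.77 in kidney and 7.61 in liver. Its mean log2 signal kept the PPARGC1A order, with kidney (17.94) slightly above liver (17.74). TFAM, the mitochondrial transcription factor, was higher in liver than in GM (1.19) and kidney (1.76). PDK4, which restrains glucose oxidation, was lower in liver than in kidney (-1.91), where its mean was highest (16.76, against 16.03 in GM).

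The 21 measured HNF4A targets lay mostly on 1 side. In liver 19 were called higher and 0 lower than in GM, with a median log2 difference of 7.82. The largest were AMBP (10.93), APOA4 (10.91) and APOC3 (10.81), all secreted plasma proteins. Their probes were well above background on 9, 11 and 13 of 16 GM arrays, in that order. Although HNF4A itself was not called between liver and kidney, 18 targets were higher and 1 lower in liver than in kidney (median 5.19). Among them were SERPINA1 (11.14, with the probe well above background on 14 of 16 kidney arrays), APOA4 (9.95) and AMBP (9.42). The exception was EPO, the erythropoietin gene, with a log2 difference of -2.76 between liver, where the probe was well above background on 3 of 16 arrays, and kidney. In kidney 11 were called higher and 1 lower than in GM (median 1.52), among them FBP1 (7.77) and NR1I2 (at least 68.5-fold), and the 1 lower was HAMP, the hepcidin gene (-1.06). Under 75th percentile scaling that last count was 7. The lists were drawn up from knowledge of the tissues, so their direction between tissues adds no independent support.

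**Figure D2:**
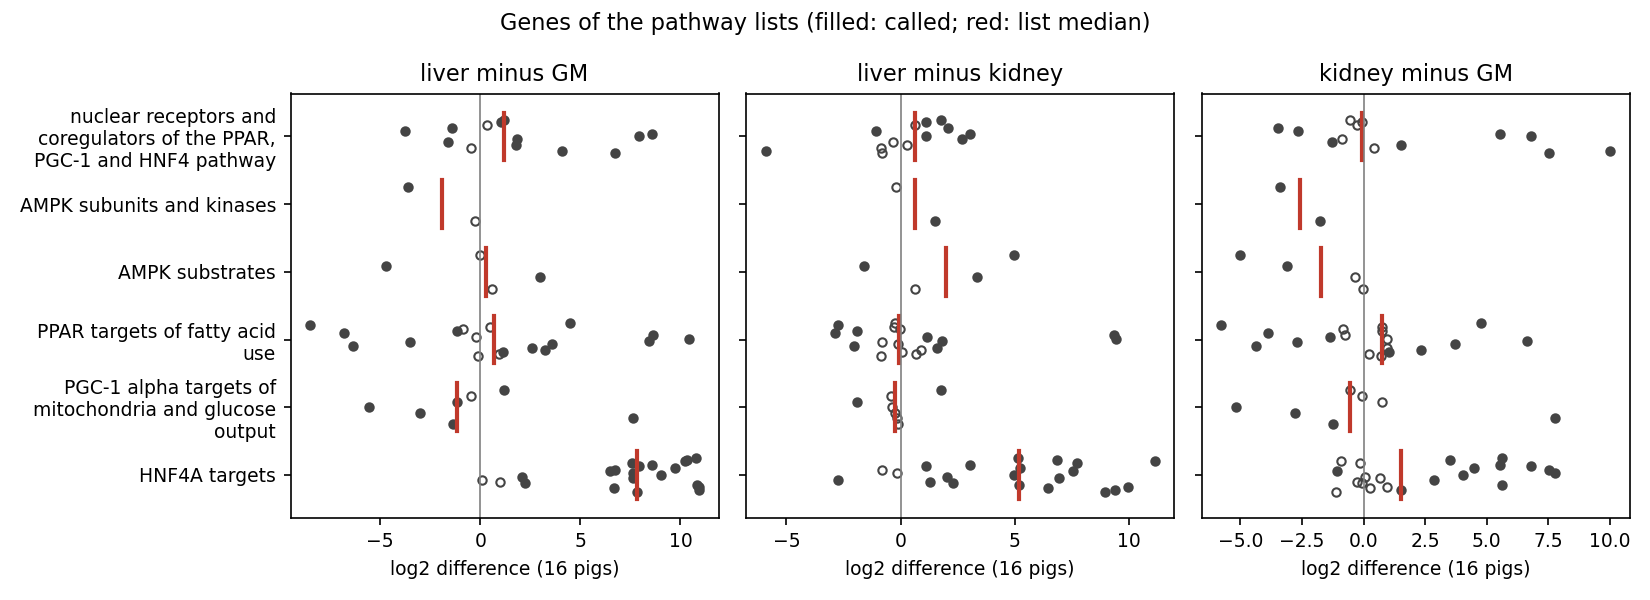
Log2 differences between tissues for the genes of each pathway list (points, filled where called), with the list median as a red bar and a line at zero. The panels are liver minus GM, liver minus kidney and kidney minus GM. HNF4A targets lie furthest above zero in liver, with medians of 7.82 against GM and 5.19 against kidney, while PPAR targets fall on both sides.

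None of the 4 regulators was called different between the lines. The question here is whether the diet of the F0 boars was followed by a difference in their F2 descendants, and the test was limma within each tissue, F2 E minus F2 C, at an adjusted p below 0.05. The members called were 0 of 3 in GM (0.769% of all probes), 0 of 4 in liver (0.0937%) and 0 of 4 in kidney (0.0119%). HNF4A was not tested in GM because it was well above background on 0 of 16 arrays there. At an unadjusted p below 0.05, 1 member passed in GM (PPARD, against 16.1% of all probes), 0 in liver (8.29%) and 0 in kidney (3.89%). Run on the same values and pigs, the methods' t-test called 0 members after Benjamini-Hochberg adjustment. Before adjustment it put PPARD in GM, and no other member, below 0.05, where 3981 of 25625 probes passed. By that test PPARD was also below the study's own, stricter unadjusted threshold, but at less than 2-fold. The limma p of PPARD was not below that threshold, and the share of all probes below it is not given here.

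PPARD in GM had the smallest p of the members. In F2 C pigs its log2 signal on the scale of the tissue ranged from 5.47 to 5.81 with a median of 5.67, and 5 of the 8 arrays were well above background. In F2 E pigs it ranged from 5.19 to 5.61 with a median of 5.46, and 0 of the 8 arrays were well above background. All 8 F2 E pigs lay below the F2 C median and 7 F2 C pigs lay above the highest F2 E pig, but the groups overlapped. The means were 5.67 ± 0.10 and 5.42 ± 0.16 (SD, n = 8 each), a log2 difference of -0.25 (95% interval -0.44 to -0.06, limma p = 0.0119, adjusted p = 0.187, exact permutation p = 0.00218). For 8 against 8 pigs the smallest exact p is 0.000155. Since no F2 E array was well above background, its mean is only an upper bound, and the dimmest spots above background on these arrays averaged 5.75, above the F2 C mean, so that no fold can be given.

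The pigs carry numbers in a lower and an upper series, and the same sign was found within both in GM (-0.20 for the lower and -0.30 for the upper numbers). Other values moved with it, however. Every GM slide held pigs of 1 line, and the local background was 26 to 28 on the F2 E arrays and 14 to 24 on the F2 C arrays. With slide as a random block the limma adjusted p was 0.791, with background-corrected signals the log2 difference was -0.93 (adjusted p = 0.0246), and with 75th percentile scaling it was 0.04. Slide and line cannot be told apart in GM, and the direction depended on the scaling.

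In liver the PPARD means were 6.58 ± 0.18 in F2 C and 6.34 ± 0.43 in F2 E (SD, n = 8 each), a log2 difference of -0.24 (-0.57 to 0.10, adjusted p = 0.746, exact permutation p = 0.179). In kidney they were 5.82 ± 0.15 and 5.93 ± 0.18, a difference of 0.11 (-0.10 to 0.32, adjusted p = 1.00, exact permutation p = 0.205). The sign in kidney was opposite to that in GM, and limma's test of this line-by-tissue difference gave 0.44 (0.08 to 0.80, adjusted p = 0.716). No member was called in the line-by-tissue tests, where 0.113% of all probes were called for liver against GM, 0.0203% for liver against kidney and 0.0522% for kidney against GM.

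HNF4A in liver was 10.11 to 10.84 in F2 C pigs (median 10.33) and 9.62 to 10.88 in F2 E pigs (median 9.95). In F2 E, 6 of 8 pigs lay below the lowest F2 C pig and 1 lay above the highest. The means were 10.44 ± 0.30 and 10.11 ± 0.46 (SD, n = 8 each), a log2 difference of -0.32 (-0.71 to 0.06, limma p = 0.0952, adjusted p = 0.675, exact permutation p = 0.120). Only in liver did slides hold both lines, and the log2 difference was 0.07 within the first of these, -0.32 within the other and -0.12 with slide as a fixed block. In kidney the HNF4A means were 10.59 ± 0.48 and 10.54 ± 0.71, a difference of -0.05 (-0.64 to 0.54, exact permutation p = 0.866). The number series went opposite ways there (0.55 for the lower numbers and -0.65 for the upper), and the highest kidney values of all were 11.53 and 11.62, from the 2 dim arrays of pigs Q and S. Without those arrays the kidney difference was -0.40 (adjusted p = 0.894).

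PRKAA2 means differed by less than the spread between pigs in every tissue. In GM they were 15.51 ± 0.35 in F2 C and 15.57 ± 0.34 in F2 E (SD, n = 8 each), a log2 difference of 0.05 (-0.29 to 0.40, exact permutation p = 0.771), made of -0.41 in the lower and 0.51 in the upper number series. In liver the difference was 0.05 (-0.26 to 0.37, exact permutation p = 0.728). In kidney all 8 F2 E pigs lay above the F2 C median, with means of 12.97 ± 0.35 and 13.14 ± 0.20, a difference of 0.17 (-0.14 to 0.47, exact permutation p = 0.253).

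PPARGC1A had the widest intervals. Its line differences were 0.20 in GM (-1.28 to 1.67, exact permutation p = 0.818), -0.15 in liver (-0.95 to 0.65, exact permutation p = 0.722) and 0.01 in kidney (-0.39 to 0.42, exact permutation p = 0.945). In GM the interval therefore still allowed a difference of more than 2-fold either way. In liver the sign turned to 0.41 with slide as a fixed block, with 0.48 and 0.34 within the 2 slides that held both lines.

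**Figure D3:**
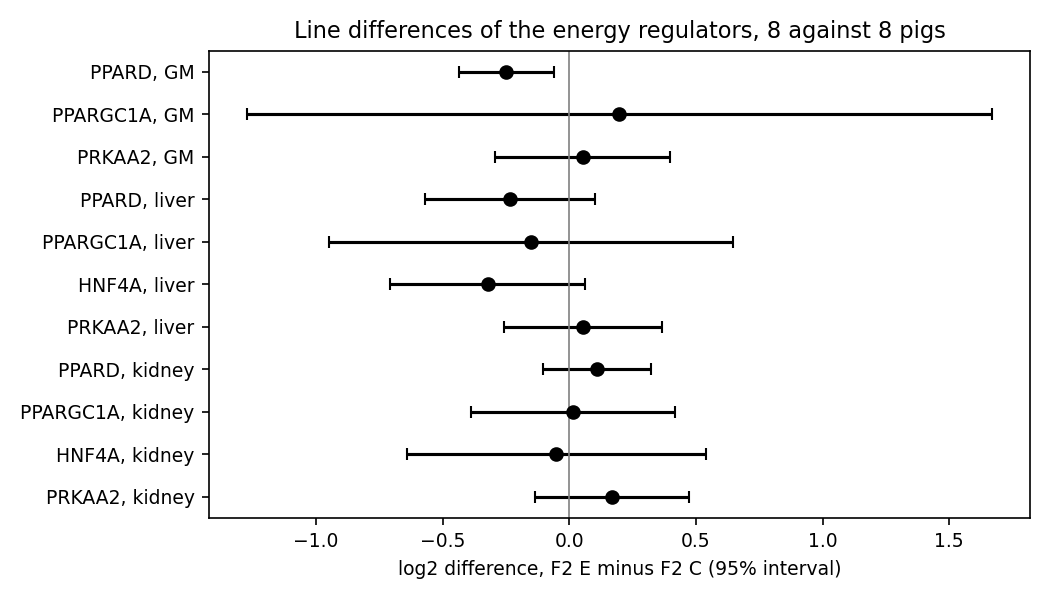
Line difference of each regulator in each tissue as log2 signal, F2 E minus F2 C (points), with 95% intervals from limma, 8 against 8 pigs. Only the interval of PPARD in GM (-0.44 to -0.06) leaves out zero, and that of PPARGC1A in GM is the widest (-1.28 to 1.67).

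The width of the PPARGC1A interval in GM came from a few pigs. On the scale of the 16 GM arrays, 11 pigs lay between 11.08 and 11.77. Pig S (F2 E, GM replicate 8) had 15.74, pig R (F2 C, GM replicate 8) 15.39 and pig T (F2 E, GM replicate 2) 13.64. These were females, as was pig U (F2 C, GM replicate 3) with 12.32, and the lowest value, 10.33, was from pig V (F2 E, GM replicate 3), also a female. All 8 barrows thus lay within the narrow band, whereas 5 of 8 females lay outside it, on both sides.

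Over the 16 pigs the range of PPARGC1A was 5.41 in GM, or 42.5-fold, against 2.55 in liver (5.87-fold) and 1.40 in kidney (2.64-fold). The high pigs in GM were not high in liver: pig S had 12.25 there, the lowest of all, pig T had 12.32 and pig R had 13.35. No comparable spread in GM was seen for PRKAA2, whose range was 1.23 (2.34-fold). The PPARD range was 0.62 (1.54-fold), but its probe was well above background on 5 of 16 GM arrays only. That range therefore says little about how PPARD varied between pigs.

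**Figure D4:**
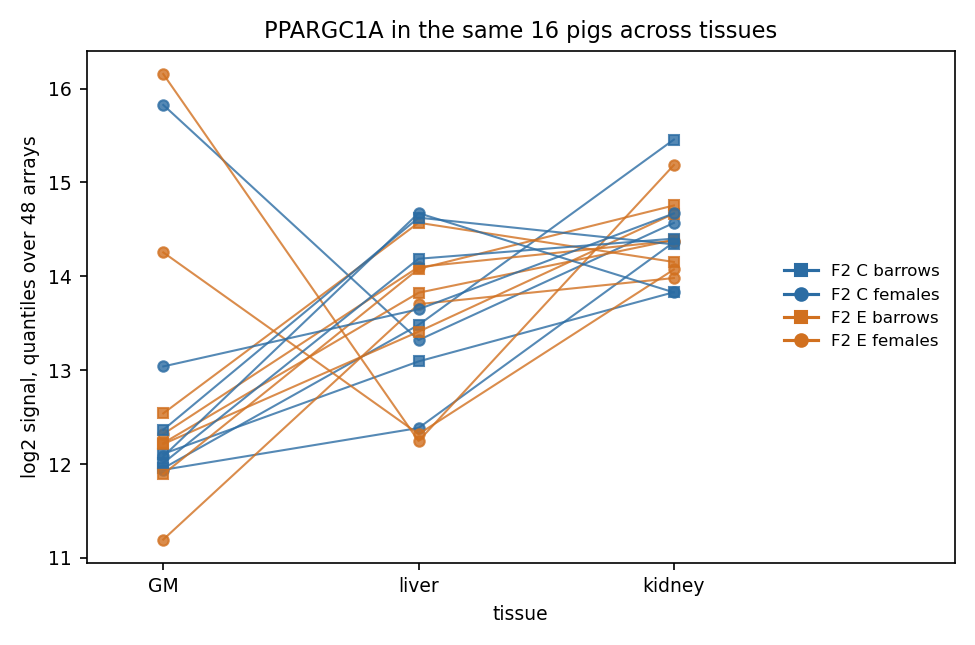
PPARGC1A log2 signal of each pig in GM, liver and kidney on the scale of 48 arrays, with the values of 1 pig joined by a line, lines of descent in colour, barrows as squares and females as circles. Pigs S and R stand at 16.16 and 15.83 in GM, above all kidney values.

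Sex differences were tested with line in the fit, as barrows minus females. In GM the PPARGC1A means were 11.37 ± 0.23 in barrows and 12.67 ± 2.03 in females (SD, n = 8 each), a log2 difference of -1.30 (-2.67 to 0.07, limma p = 0.0608, adjusted p = 0.998, exact permutation p = 0.116). Without pigs R and S it was -0.34. In liver PPARGC1A was 0.64 higher in barrows (adjusted p = 0.429, exact permutation p = 0.129) and HNF4A 0.31 higher (adjusted p = 0.419, exact permutation p = 0.133). None of the members was called for sex in any tissue, where the share of probes called was 0.121% (GM), 0.121% (liver) and 0.0921% (kidney). The line-by-sex test called 0 members and 0% of all probes in each tissue by limma, where 890 (GM), 506 (liver) and 884 (kidney) probes had an unadjusted p below 0.05 and none of these was a member.

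The genes most like each member were taken by Pearson's r over the 48 arrays among 1605 named genes, once with the tissue differences in and once after the mean of each tissue and line was removed. Arrays of a pig, a tissue or a slide share their source, and these r values are a description with no test. HNF4A was most like FTCD, a liver and kidney enzyme of histidine breakdown (0.982), APOM, an apolipoprotein (0.977), and NR1I2 (0.973). PRKAA2 was most like the muscle genes CACNG1, a calcium channel subunit (0.986), MYL1, a myosin light chain (0.985), and MYOZ3, a Z-disc protein (0.985). These are the tissue orders described above. With the tissue and line means removed, the highest r fell to 0.707 for HNF4A (MAPK12, followed by CLTC with 0.701 and PKIG with 0.689) and 0.565 for PRKAA2 (FBXO33, followed by LMO4 with 0.473 and ANGPTL2 with 0.461).

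PPARD was most like DLK1 (0.715), CD3E (0.708) and IL4R (0.698), and after removal of the means like MLN (0.633), ATP4A (0.592) and COL5A3 (0.590). DLK1 was well above background on 1 array of GM, 12 of liver and 9 of kidney, and MLN on 2, 2 and 11, so that these were dim probes like PPARD itself. For PPARGC1A the highest r with the tissue differences in was 0.733 (RHOF), followed by PTPN1, a tyrosine phosphatase (0.719), and ENG, a coreceptor of endothelium (0.685).

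After removal of the tissue and line means, PPARGC1A was most like NR4A3 (0.821), NFATC1 (0.697) and NPPA (0.676). NR4A3 encodes an orphan nuclear receptor that is induced early by exercise and adrenergic stimulation, and NFATC1 a transcription factor activated by calcineurin. In GM on the scale of 48 arrays, NR4A3 was 15.06 in pig R, 15.10 in pig S and 11.81 in pig T, against 8.21 to 11.11 in the other 13 pigs. NFATC1 was 11.71 in pig R and 11.65 in pig S, against 8.51 to 9.68 in the others. The same 2 pigs carried the highest values of all 3 genes. Since NR4A3 and NFATC1 were picked by their r with PPARGC1A on these arrays, a shared peak adds no independent support.

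NPPA, the atrial natriuretic peptide gene, was well above background on 2 of 16 GM arrays only, with log2 signals of 7.50 in pig S and 7.27 in pig R. Over the 16 GM arrays alone r with PPARGC1A was 0.878 for NR4A3, 0.820 for NFATC1 and 0.910 for NPPA, and without the 2 pigs farthest from the median it was 0.514, -0.143 and 0.541. The likeness of NFATC1 therefore rested on those 2 pigs. For NPPA the r without them came from arrays nearly all not well above background, so it says little about its likeness. HMOX1, the haem oxygenase, which was chosen after its values were seen, had an r of 0.804 in GM and 0.490 without those 2 pigs.

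The measured PGC-1 alpha targets did not share this pattern. Over the 16 GM arrays r with PPARGC1A was 0.08 for TFAM, -0.20 for ATP5O, -0.34 for IDH3A, -0.25 for SDHB, 0.02 for PDK4 and 0.29 for MEF2C. UCP3, a target of PPARs in muscle, had an r of 0.43.

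**Figure D5:**
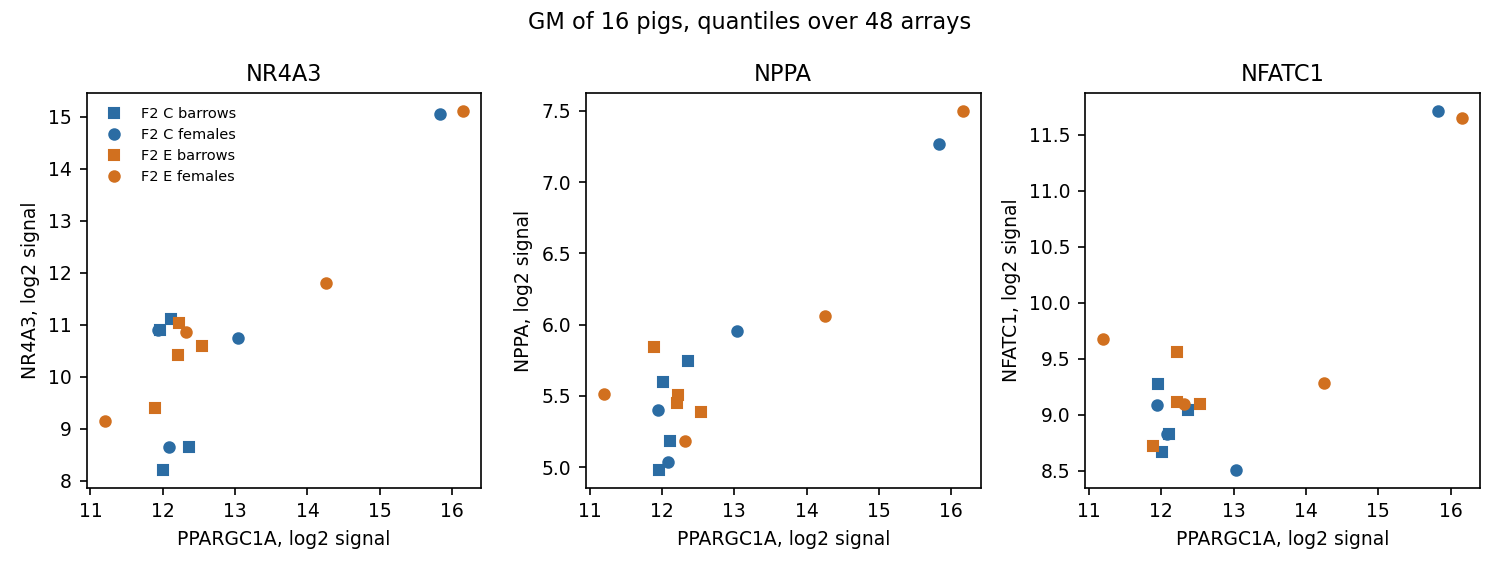
Log2 signal in GM of the genes most like PPARGC1A plotted against that of PPARGC1A on the scale of 48 arrays, 1 point for each of 16 pigs with F2 C and F2 E in colour, barrows as squares and females as circles. Pigs R and S lie apart at the upper right in NR4A3 (15.06 and 15.10) and NFATC1 (11.71 and 11.65).

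No pair of members passed the correlation test. Among the 7 pairs of members that were well above background on all 16 arrays of a tissue, the smallest adjusted p of Pearson's r was 0.753 (permutation test, 100000 resamples, 16 pigs). PPARGC1A and HNF4A in kidney had an r of 0.374 (permutation p = 0.152) and a Spearman rank correlation of 0.50 (permutation p = 0.0513, adjusted p = 0.359). Within the lines r was -0.182 in F2 C and 0.892 in F2 E, and without the 2 dim kidney arrays it was 0.091 over both lines and 0.709 in F2 E. Without the 2 pigs farthest from the median it was 0.687.

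Among the pathway lists, 1 gene was called between lines in 1 tissue: UCP3 in liver, 1 of 17 PPAR targets tested there. Its log2 signal on the scale of the tissue was 6.59 to 11.03 in F2 C pigs (median 9.12), with 8 of 8 arrays well above background, and 5.95 to 6.65 in F2 E pigs (median 6.43), with 5 of 8. The F2 C pigs spread widely, and the groups overlapped only at the low end. The means were 9.12 ± 1.52 and 6.40 ± 0.23 (SD, n = 8 each), a log2 difference of -2.72, or 6.58-fold lower in F2 E (limma adjusted p = 0.0311, exact permutation p = 0.000466). The log2 of the summed signal of the GM markers in liver was 8.72 to 9.46 in F2 C and 8.68 to 9.66 in F2 E. That of 6 adipocyte markers was 10.73 to 11.39 and 10.99 to 11.79, and 2 of the 5 adipocyte markers tested had an unadjusted p below 0.05 between lines. Their part in the UCP3 value was not tested.

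The UCP3 call was lost under 75th percentile scaling (limma adjusted p = 0.0616), with normexp (adjusted p = 0.146) and with the methods' t-test (adjusted p = 0.155). It was also lost with slide as a random block (limma adjusted p = 0.0847) or a fixed block (-2.40, adjusted p = 0.185). Without pigs R and S the limma adjusted p was 0.0936, and within the lower and upper number series 0.366 and 0.0928. The call was kept with background-corrected signals (adjusted p = 0.0231) and with sex in the fit (adjusted p = 0.0387). Leaving out any 1 of 9 pigs lost it, and over every pig left out in turn the log2 difference stayed between -3.10 and -2.40. In kidney the UCP3 difference had the opposite sign, 2.52 (F2 C 9.63 ± 2.26 and F2 E 12.15 ± 1.74, SD, n = 8 each, exact permutation p = 0.0288), and was not called (limma adjusted p = 1.00). The test of the difference between these line differences, liver minus kidney, gave -5.39 (SE 0.83, limma adjusted p = 0.00228), whereas those of liver minus GM (-3.03, adjusted p = 0.192) and of kidney minus GM (2.36, adjusted p = 0.583) were not called. Each kidney slide held pigs of 1 line, so line and slide cannot be told apart in the tests that use kidney. In GM the UCP3 means were 15.68 ± 0.50 and 15.84 ± 0.74 (SD, n = 8 each).

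In the other lists of the pathway 0 genes were called between lines by limma in any tissue. At an unadjusted p below 0.05 there was 1 of these genes in GM (RXRG, where 16.1% of all probes passed). The largest such counts were 2 of 20 HNF4A targets in liver, where 8.29% of all probes passed, and 4 of 18 in kidney, where 3.89% did. In kidney the log2 of the summed signal of 6 liver markers was 13.20 to 14.60 in F2 C and 13.25 to 16.32 in F2 E. Of these 6 markers, 1 had an unadjusted limma p below 0.05 between lines there. Their part in the kidney count was not tested. The smallest unadjusted p among HNF4A targets in liver were those of the clotting factors F10 (-0.50, limma adjusted p = 0.195) and F7 (-0.53, limma adjusted p = 0.329). LIPE had a liver difference of 0.42 (adjusted p = 0.275), SIRT3, a mitochondrial deacetylase, one of -0.67 (adjusted p = 0.293) and PRKAG1 one of -0.38 (adjusted p = 0.530). In GM the RXRG difference was 0.44 (adjusted p = 0.229) and that of PRKAG3 0.23.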

How the data were processed

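Total RNA was labelled with Cy3 and hybridised to 1-colour Agilent porcine arrays, 1 per pig and tissue (48 arrays, 45220 spots each). The deposited scanner files hold intensity values per spot that the authors extracted with Agilent Feature Extraction (version 10.5.1.1 per the file headers). From these, the median spot signal (median of pixels, no background subtracted) was taken to log2 and quantile-normalized, as in the study's methods, over the 16 arrays of a tissue for lines and sexes and over 48 arrays for tissues. Spots of 1 probe were averaged, outlier-flagged spots were left out after normalization, and control spots were removed. No spot was saturated. The whole-series tables' 48 per-sample columns, which hold the authors' processed log2 values, and their columns of log2 ratios, p-values and false discovery rates for the line comparison, were not used.

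A probe was tested if its signal was above 25 and exceeded background in 50% or more of a group's arrays (6 groups for tissues), with at least 2 unmarked arrays per group. Tests used limma 3.58.1 (R 4.3.3, lmFit and eBayes) with Benjamini-Hochberg adjustment over all probes tested. Tissue fits had the pig as a fixed block, because each pig gave all 3 tissues. Exact permutation tests (two-sided, scipy 1.17.1) were run over pigs. The bound for a probe not well above background was computed on means of normalized log2 values. Scripts were tested on simulated data. The number of arrays limits the precision. Pigs are separate animals, but GM and kidney slides each held 1 line.

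Accessions were named through the RefSeq table of Sscrofa11.1 (2628 probes, 1862 genes), and other probes were left unnamed. Named genes were all members, up to 3 called genes per pathway list and direction (otherwise those with the smallest p), and for each member the 3 genes of highest r. For a gene with several probes, that well above background on the most arrays was used. The members and lists were chosen with earlier results of these data known. Alternatives were 75th percentile scaling, background-corrected signals, normexp (offset 50), other filters on dim probes and outlier spots, the methods' t-test, sex, slide, number series or replicate number in the fit, and leaving out each pig. Some genes of the pathway lists are counted in them but are not reported here by name.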

Additional observations from a re-analysis of the deposited data

Results flagged for a closer look

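In GM, the PPARGC1A log2 signal of pig R, an F2 C female, was 15.39 (tissue scale), far above the other 7 F2 C pigs, whose median with it was 11.29. Its gap to the next pig, divided by the range of the group, passed Dixon's critical value of 0.526 for 8 pigs. It was the only 1 of 24 groups to do so, and chance alone flags about 1 group in 20. With pigs R and S left out, the line difference of PPARGC1A in GM was 0.18, against 0.20 with all pigs; without pig R alone it was 0.69.

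The line difference of UCP3 differed between liver and kidney, by -5.39 on the log2 scale (limma adjusted p = 0.00228), with F2 E lower than F2 C in liver and higher in kidney.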

How the results depend on the processing

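The calls of HNF4A and PRKAA2 against GM, and of PPARGC1A between kidney and GM, kept their direction under every alternative run in which they were tested. Values that changed sign or call under an alternative follow, and the cause was not tested unless stated. Under 75th percentile scaling, PPARD had -0.050 for liver minus GM and 0.038 for the GM line difference, PRKAA2 0.084 for liver minus kidney and -0.050 for the liver line, and PPARGC1A -0.017 for the kidney line. The line-by-tissue values (liver against GM) were -0.095 for PPARD and -0.12 for PRKAA2, and the PPARD sex differences -0.51 in liver and -0.13 in kidney. That scaling called 1 member between liver and kidney (PPARD) and 4 between kidney and GM (3 with quantiles), 1 nuclear receptor lower in liver than in kidney (2 with quantiles), 7 HNF4A targets lower in kidney than in GM (1 with quantiles) and 0 PPAR targets between lines in liver (1 with quantiles). PPAR targets were then 4 higher and 7 lower in kidney than in GM (5 and 5 with quantiles) and 7 higher in liver than in kidney (5 with quantiles). Background-corrected signals gave PRKAA2 0.21 for liver minus kidney and -0.072 for the liver line, and called 1 member between liver and kidney and 1 between lines in GM (PPARD). Requiring signal on all arrays left 1 member called between liver and GM and 2 between kidney and GM, since HNF4A was then not tested by construction.

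Within the lower number series the line differences were -0.41 (PRKAA2, GM), 0.41 (PPARGC1A, liver), -0.066 (PRKAA2, liver), 0.55 (HNF4A, kidney) and -0.072 (UCP3, GM), and within the upper series -0.14 (PPARGC1A, kidney). PPARGC1A in liver was 0.071 with slide as a random block and 0.41 as a fixed block, 0.48 within slide 1 and 0.34 within slide 2. PRKAA2 there was -0.066 with the fixed block and -0.50 within slide 1, where HNF4A was 0.075. Without the 2 dim kidney arrays PRKAA2 was 0.056 for liver minus kidney and PPARGC1A -0.14 for the kidney line. Without pigs R and S the values were -0.058 (PPARGC1A, kidney line), 0.0016 (PPARD, GM sex) and 0.15 (HNF4A, kidney sex).

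Leaving out 1 pig at a time gave ranges of -0.064 to 0.028 for PRKAA2 between liver and kidney, and for lines of -0.32 to 0.69 (PPARGC1A, GM), -0.35 to 0.038 (PPARGC1A, liver), -0.076 to 0.14 (PPARGC1A, kidney), -0.21 to 0.077 (HNF4A, kidney), -0.039 to 0.13 (PRKAA2, GM) and -0.035 to 0.13 (PRKAA2, liver). For sex they were -0.075 to 0.14 (PPARD, liver), -0.024 to 0.21 (PPARGC1A, kidney) and -0.25 to 0.069 (HNF4A, kidney), and for line by sex -1.12 to 0.81 (PPARGC1A, GM) and -0.24 to 0.23 (PPARGC1A, kidney). UCP3 in liver stayed between -3.10 and -2.40, and other settings that lost its call are given with its values above.

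Replicate numbers were shared between lines but named different pigs, and the deviations of same-numbered pigs correlated at -0.157 to 0.330 in GM (2 of 8 pairs above 0.1), -0.088 to 0.585 in liver (6 of 8) and -0.574 to 0.458 in kidney (3 of 8). In liver, replicates 5 to 8 of both lines shared slides. The numbers were not used as pairs. With the replicate block 0 members were called, PPARD in GM was -0.25 (adjusted p = 0.276) and the UCP3 call in liver was lost (adjusted p = 0.0943). Normexp on the mean signal was not run, because the mean signal was not analysed here, and normexp on the median signal, the slide fits and the fits without named pigs or arrays were chosen after seeing the data. PPARD, and HNF4A in GM, were limited by their signal over background.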
